A study of Homo sapiens with 2 samples.

Results

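The 9 genes of deoxynucleotide supply are described here, chosen by name for their roles and matched by Entrez ID in both deposited files. These 9 of 27685 genes are RRM1, RRM2 and TYMS of de novo synthesis, DUT, which cleans the pool, DTYMK, which serves both routes, the salvage kinases TK1, TK2 and DCK, and the nucleoside transporter SLC29A1. RNA was sequenced after 24 h in 6 µM JIB-04, a small-molecule inhibitor of Jumonji histone demethylases, or in DMSO, the solvent, in PLC/PRF/5, a human line established from a hepatocellular carcinoma. There was 1 library per condition, so no difference has a replicate check and no p-value was possible. The treatment label of the control reads untreated, but its title and the study's methods give DMSO, which is the name used here. Both libraries come from the same line, and nothing in these values tells how other hepatoma lines would respond. The comparison asks how transcripts for the de novo and salvage supply of DNA precursors stood after JIB-04.
The building blocks of DNA are made in cells by reduction of ribonucleotides, a step of ribonucleotide reductase, and thymidylate is then made by methylation of dUMP. Nucleosides can instead be taken up from outside and phosphorylated, the salvage route, and both routes meet at thymidylate kinase. Several of these genes, among them RRM2, TYMS and TK1, are known for high expression around DNA replication in dividing cells, whereas mitochondrial TK2 is also used by resting cells.
All 9 members have annotated starts in RefSeq on GRCh38.p14, with 15 windows of 250 bases before to 50 after a start, some of which overlap. The 150 bases before 4 of these starts, the downstream ones of RRM2, DUT and TK1 and the single one of TYMS, are printed to show genes that moved together or apart in the expression values. Capitals mark CCAAT and E2F-type letters on either strand, with E2F-type meaning TTCCCGC or else the form TTGGCGC or else the form TTCGCGC or else the form TTGCCGC, none of which overlap one another here.
RRM2, chr2:10122589-10122738, plus strand: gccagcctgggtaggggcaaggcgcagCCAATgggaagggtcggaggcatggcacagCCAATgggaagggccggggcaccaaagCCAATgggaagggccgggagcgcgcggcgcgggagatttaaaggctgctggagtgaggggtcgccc
TYMS, chr18:657503-657652, plus strand: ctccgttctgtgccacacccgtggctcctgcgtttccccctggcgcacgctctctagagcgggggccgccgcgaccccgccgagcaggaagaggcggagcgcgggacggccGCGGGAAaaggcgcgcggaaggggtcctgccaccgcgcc
DUT, chr15:48332047-48332196, plus strand: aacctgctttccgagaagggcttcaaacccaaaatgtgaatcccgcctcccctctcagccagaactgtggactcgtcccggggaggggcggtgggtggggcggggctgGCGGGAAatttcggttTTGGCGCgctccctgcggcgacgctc
TK1, chr17:78187053-78187202, minus strand: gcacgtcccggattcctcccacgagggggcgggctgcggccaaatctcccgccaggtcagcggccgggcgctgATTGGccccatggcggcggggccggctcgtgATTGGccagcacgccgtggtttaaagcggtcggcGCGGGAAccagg
E2F-type letters stood in 6 of the 15 windows, from 6 members, against 13.0% of 35116 RefSeq promoters. CCAAT stood in 5 windows of 4 members, against 34.6% of all promoters. In the printed stretches, RRM2 carried CCAAT 123, 93 and 66 bases before the start, TYMS an E2F-type match 39 bases before it, and DUT E2F-type matches 42 and 26 bases before it. TK1 carried an E2F-type match 12 bases before the start and CCAAT 77 and 46 bases before it, whereas the window of its upstream start held neither. All deposited TK1 transcripts begin at 1 base, 76183285 on hg19, and coordinates were not converted between builds. Which of the GRCh38.p14 starts matches that base was not determined. The printed TK1 bases may therefore lie inside the first exon behind the TK1 values. The window of the upstream RRM2 start held 1 match of each kind, the E2F-type one 192 bases before that start. TTTGAA, the core letters of a cell cycle element, stood in 3 of the 15 windows, and ACGTG or GCGTG, the core letters bound by hypoxia-inducible factors, in 11, against 15.2% and 48.4% of all promoters (both strands). These matches describe letters and not bound sites.
Values are TPM, the share of a gene's transcripts among all transcripts in a library after correction for length, summed over a gene's annotated transcripts. Estimated aligned fragments numbered 23721989 in the JIB-04 library and 28187793 in the DMSO library, and the 9 members drew between 513 and 6985 each. The log2 ratio is that of TPM + 1 in the JIB-04 library over TPM + 1 in the DMSO library, and was described for the 14450 genes that reached a TPM of 1 in 1 library or both. Its interval is a 95% exact conditional binomial interval on the estimated fragments and covers counting error only, not differences between cultures. As a check of the cell line, HNF4A stood at 72.3 TPM with JIB-04 and 71.9 TPM with DMSO and AFP at 151 and 131 TPM, all 9 hepatocyte and hepatoma markers reached a TPM of 1 in a library, and ALB was low at 4.53 and 9.74 TPM. The summed level of these 9 markers was 4604 TPM with JIB-04 and 8302 TPM with DMSO. Most of that sum was KRT8, at 1912 and 3212 TPM, and KRT18, at 2214 and 4484 TPM. Of the 9 markers 6 had a log2 ratio below 0, the lowest being APOB at 32.9 TPM with JIB-04 and 103 TPM with DMSO. APOA1 was near the floor at 0.99 and 1.34 TPM. PTPRC and CDH5, which define leukocytes and endothelium, were listed at 0 in both libraries. LYZ, at 41.9 TPM with JIB-04 and 57.3 TPM with DMSO, and COL1A1, at 10.6 and 16.0 TPM, were the markers of leukocytes, endothelium and fibroblasts, 8 in all, above a TPM of 1.
Most genes of the set had lower levels with JIB-04. By gene sums TK1 stood apart as the member above its DMSO level, except where both libraries were divided by GAPDH. With the most abundant transcript alone, SLC29A1 also stood above its DMSO level, at 0.28. A log2 ratio below 0 was found for 8 of 9 members, beside 60.3% of all genes, and the median was -0.62 for the members and -0.15 for all genes. None of the 9 was at least 2-fold higher or 2-fold lower, beside 5.99% and 6.88% of all genes (865 and 994, or 1135 and 627 with the median ratio of well expressed genes set to 0). RRM1, RRM2, DCK, SLC29A1 and DTYMK, 5 of 9, were at least 1.5-fold lower, beside 21.0% of all genes. The summed level of the 9 members was 857 TPM with JIB-04 and 1211 TPM with DMSO. The counting intervals of 7 members lay wholly below the median ratio of all genes, that of TK2 spanned it and that of TK1 lay above it.

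**Figure D1:**
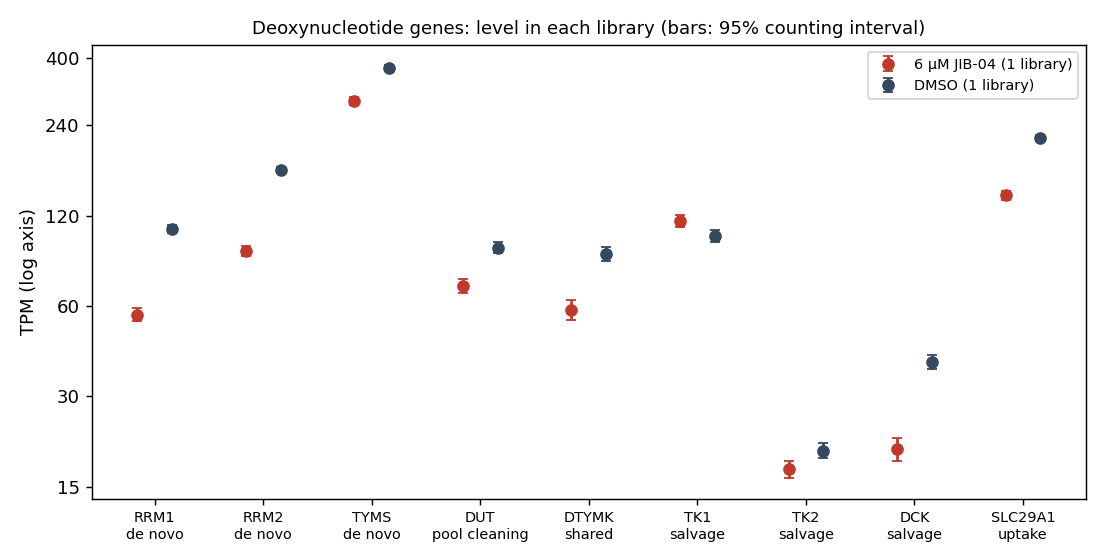
Level of each member in TPM (log axis) in the JIB-04 library (red) and the DMSO library (dark), 1 library each, with 95% counting intervals as bars. TYMS was the most abundant in both, at 289 TPM with JIB-04 and 371 TPM with DMSO, and in these deposited values, not divided by GAPDH, TK1 is the gene whose JIB-04 point lies above its DMSO point.

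Ribonucleotide reductase supplies all deoxynucleotides, and both genes of the replicative enzyme were lower with JIB-04. RRM1 (chromosome 11, 4115915 to 4160155 on hg19, plus strand), which encodes the large catalytic subunit, was at 56.2 TPM with JIB-04 and 108 TPM with DMSO, a log2 ratio of -0.93 (interval -1.01 to -0.85). Of all described genes, 8.22% had a lower ratio. RRM2 (chromosome 2, 10262695 to 10271546, plus strand), the small subunit that carries the tyrosyl radical, was at 91.4 TPM with JIB-04 and 170 TPM with DMSO, a log2 ratio of -0.89 (interval -0.95 to -0.83). The subunits therefore kept nearly the same proportion, with 1.63 RRM2 transcripts per RRM1 transcript with JIB-04 and 1.57 with DMSO. The difference of these proportions was 0.047 on the log2 scale, with an interval of -0.054 to 0.15, so no shift between the subunits was detectable beyond counting error. In bulk RNA, fewer cells in DNA synthesis and less RNA of these genes per cell cannot be told apart.
The lower level of the reductase genes ran along their whole length. Exons of a gene that overlap were joined for this reading, so that the split of coverage among transcripts does not enter it. All 19 exons of the main RRM1 transcript, NM_001033, had lower coverage with JIB-04, with log2 ratios of coverage between -1.49 and -0.63, and all 10 exons of the main RRM2 transcript, NM_001034, lay between -1.08 and -0.61. Exons of 1 transcript share their fragments' source and are not replicates. NM_001033 took 98.1% of RRM1 TPM with JIB-04 and 99.8% with DMSO, and NM_001034 took 99.6% and 99.8% of RRM2 TPM. The start of the other RRM2 transcript, which lies upstream, was at 0.36 TPM with JIB-04 and 0.27 TPM with DMSO, so nearly all RRM2 TPM was assigned to the downstream start, whose upstream bases with CCAAT are printed above.
TYMS (chromosome 18, 657604 to 673499, plus strand) encodes thymidylate synthase, the enzyme inhibited by fluoropyrimidine drugs, and was the most abundant member. It was at 289 TPM with JIB-04 and 371 TPM with DMSO, a log2 ratio of -0.36 (interval -0.41 to -0.30). This was a smaller difference than that of the reductase genes, since TYMS over RRM2 was 3.16 with JIB-04 and 2.18 with DMSO, 0.54 higher on the log2 scale (interval 0.45 to 0.62). All 7 exons were lower with JIB-04, between -0.52 and -0.20. On the opposite strand, TYMS shares 994 of its 1583 exonic bases with ENOSF1 and TYMSOS. The 3 exons that share none had log2 ratios between -0.31 and -0.20, and the library was stranded and counted with a strand setting. ENOSF1 itself was at 36.2 TPM with JIB-04 and 35.8 TPM with DMSO, and TYMSOS at 3.56 and 5.08 TPM.

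**Figure D2:**
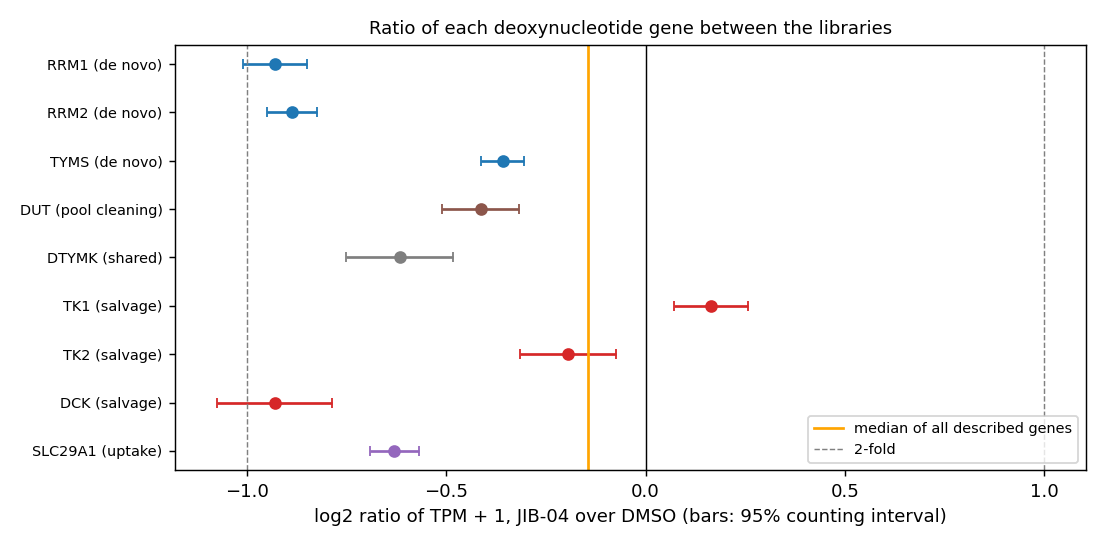
Log2 ratio of TPM + 1, JIB-04 over DMSO, for each member, with 95% counting intervals as bars, coloured by role. The orange line is the median of all 14450 genes (-0.15) and the dashed lines mark 2-fold. RRM1, RRM2 and DCK lie close to the lower 2-fold line and TK1, at 0.16 without division by GAPDH, lies right of 0.

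DUT (chromosome 15, 48623292 to 48635570, plus strand) encodes the dUTPase that removes dUTP and gives the dUMP used by thymidylate synthase. Summed over its transcripts it was at 70.1 TPM with JIB-04 and 93.7 TPM with DMSO, a log2 ratio of -0.41 (interval -0.51 to -0.32). Relative to TYMS it differed by -0.060 on the log2 scale (interval -0.17 to 0.051), which includes no difference. By the estimates of StringTie, the sum joined forms that moved apart. NM_001948, which encodes the nuclear form and starts at 48624365, was at 19.8 TPM with JIB-04 and 42.0 TPM with DMSO, a log2 ratio of -1.05 (interval -1.22 to -0.88). NM_001025248, which encodes the mitochondrial form and starts upstream at 48623621, was at 45.6 TPM with JIB-04 and 45.7 TPM with DMSO (log2 ratio interval -0.12 to 0.12). On these estimates the nuclear transcript made up 28.2% of DUT TPM with JIB-04 and 44.8% with DMSO.
These transcripts share most of their exons, so coverage was also read where the split among them does not enter. The first exon of the upstream start lies in no transcript of another start, and its scaled coverage was 80.2 with JIB-04 and 64.3 with DMSO, 0.32 on the log2 scale (interval 0.072 to 0.56). The first exon of NM_001948 has 239 bases, of which 139 also lie in the next exon of the upstream transcripts, so the coverage assigned to it, 47.1 with JIB-04 and 109 with DMSO, is itself an estimate (-1.21, interval -1.54 to -0.90). Over these 239 bases, coverage of all transcripts together was 120 with JIB-04 and 177 with DMSO, a log2 ratio of -0.56 (interval -0.78 to -0.35) from the equivalent of 282 and 504 fragments. The upstream first exon was thus higher with JIB-04, while the bases around the downstream start, and the 5 exons after it at log2 ratios between -0.85 and -0.26, were lower. Of these, the exons at -0.27 (interval -0.63 to 0.073) and -0.26 (interval -0.56 to 0.030) had counting intervals that included 0. A remaining DUT start, at 48623292, rested on the equivalent of 1 fragment in each library, and no direction is read for it.
DTYMK (chromosome 2, 242615157 to 242626383, minus strand), the kinase that takes dTMP from synthesis and from salvage to dTDP, was at 58.1 TPM with JIB-04 and 89.5 TPM with DMSO. Its log2 ratio was -0.62 (interval -0.75 to -0.48), lower than that of TYMS by 0.27 on the log2 scale (difference -0.27, interval -0.41 to -0.12). All 5 exons of the main transcript were lower with JIB-04, with a wide range between -0.89 and -0.078. All 8 annotated DTYMK transcripts begin at the same base, so their separate TPM values cannot be checked at the first exon. The most abundant of them, NM_012145, was at 45.7 TPM with JIB-04 and 50.6 TPM with DMSO, and NM_001165031 was at 1.79 TPM with JIB-04 and 15.4 TPM with DMSO.

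**Figure D3:**
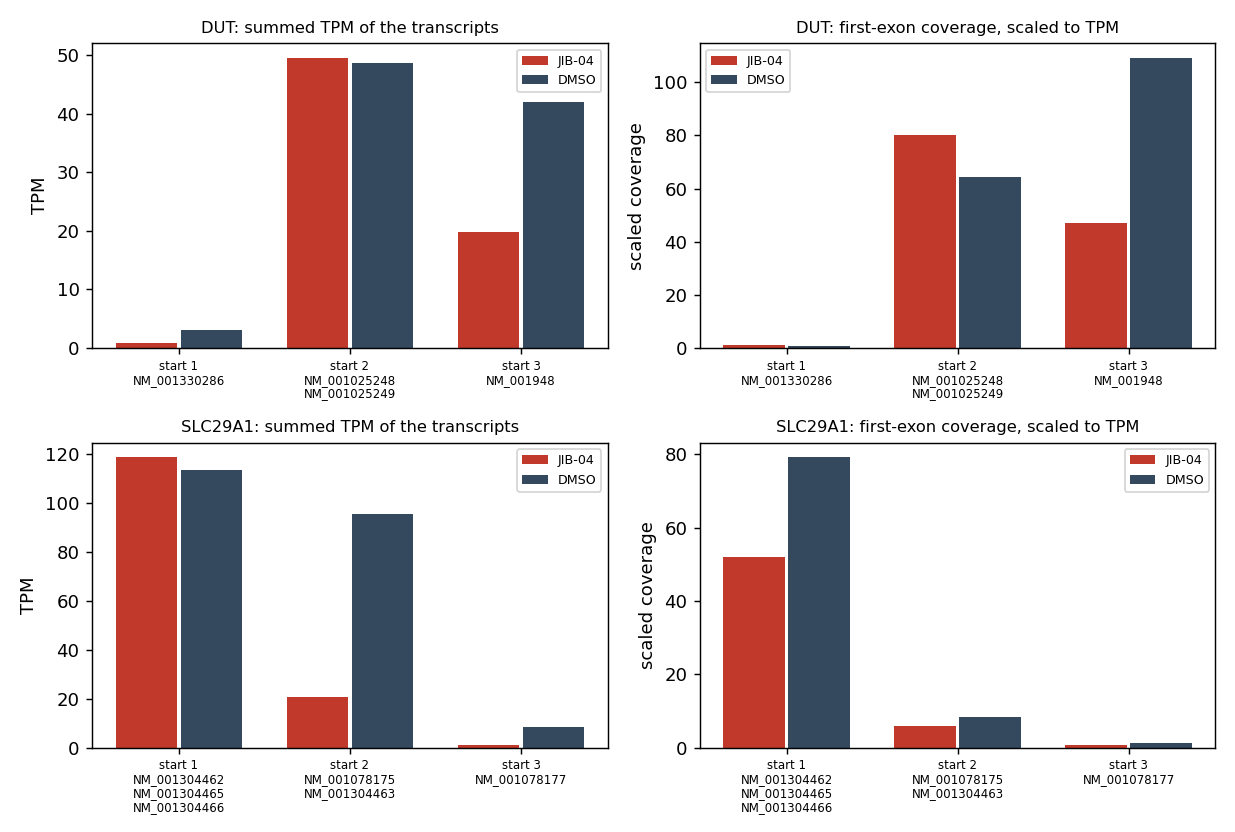
Annotated transcript starts of DUT and SLC29A1, with summed TPM of the transcripts of each start on the left and coverage of their first exons, scaled to TPM, on the right, JIB-04 in red and DMSO in dark. For DUT both readings give a lower JIB-04 value at the start of NM_001948 (19.8 against 42.0 TPM, and coverage of 47.1 against 109), although 139 of the 239 bases of that first exon are shared with upstream transcripts, whereas for SLC29A1 the split seen in TPM is not seen in the first exons.

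The salvage kinases did not move as a group. TK1 (chromosome 17, 76170160 to 76183285, minus strand), the cytosolic thymidine kinase of dividing cells, was at 115 TPM with JIB-04 and 103 TPM with DMSO, a log2 ratio of 0.16 (interval 0.071 to 0.26), and 70.2% of all genes had a lower ratio. All 7 exons of its main transcript, NM_003258, had higher coverage with JIB-04, between 0.090 and 0.33 on the log2 scale. Taken singly, the counting interval of exon 6 lay above 0 (0.016 to 0.64), and those of the other exons included 0. The last exon, with the most fragments, stood at 0.090 (interval -0.033 to 0.21). The difference is small, and whether replicate sequencing libraries would keep its direction was not tested. With the 2 libraries scaled to the same median, TK1 stood at 0.31, and with both divided by GAPDH it stood at -1.17, since GAPDH was at 20148 TPM with JIB-04 and 7975 TPM with DMSO. The study's own qRT-PCR, which was normalized to GAPDH and measured in triplicate, reported lower TK1 mRNA in PLC/PRF/5 after 24 h of JIB-04. That direction is opposite to the TPM value here and the same as that of the value divided by GAPDH.
TK2 (chromosome 16, 66541906 to 66584315, minus strand), the mitochondrial thymidine and deoxycytidine kinase, had the lowest level of the set, 17.2 TPM with JIB-04 and 19.8 TPM with DMSO. Its log2 ratio of -0.20 (interval -0.31 to -0.075) spans the median of all genes. Of its 9 joined exons, 5 were lower and 4 higher with JIB-04. The last exon, with the most fragments, stood at -0.21 (interval -0.36 to -0.064). The counting intervals of the other exons included 0, so no direction is read from them singly.
DCK (chromosome 4, 71859265 to 71896629, plus strand), the deoxycytidine kinase that also activates gemcitabine and cytarabine, was at 20.04 TPM with JIB-04 and 39.1 TPM with DMSO. The log2 ratio was -0.93 (interval -1.08 to -0.79), as far below 0 as that of RRM1, and 8.19% of all genes had a lower one. All 7 exons were lower with JIB-04. Its long last exon was the lowest, with scaled coverage of 9.53 with JIB-04 and 25.9 with DMSO, a log2 ratio of -1.44, against a median of -0.73 over the other exons. Without that exon DCK stood at -0.72.
SLC29A1 (chromosome 6, 44187242 to 44201888, plus strand) encodes ENT1, the equilibrative carrier through which nucleosides and nucleoside drugs enter cells. It was the next most abundant member after TYMS, at 140 TPM with JIB-04 and 217 TPM with DMSO, a log2 ratio of -0.63 (interval -0.69 to -0.57). The lower level was even along the gene, with all 13 exons of NM_001304466 between -0.88 and -0.38. Read by transcript, the start at 44187242 was at 119 TPM with JIB-04 and 113 TPM with DMSO, and the start at 44191241 at 20.5 and 95.6 TPM, a log2 ratio of -2.16. The first exons did not show this split. Scaled coverage of the first exon was 52.0 with JIB-04 and 79.2 with DMSO at the upstream start, -0.61 on the log2 scale (interval -0.91 to -0.31). At the start at 44191241 it was 5.87 and 8.35, with an interval of -1.97 to 0.84 from the equivalent of 8 and 14 fragments, and 16 of that exon's 138 bases lie in an exon of another start. The gene sum of SLC29A1 is therefore the firmer value, and its transcript values are given as StringTie's estimates.
Set side by side, the summed transcripts of the de novo genes were lower with JIB-04, while those of the salvage kinases were close to their DMSO level. RRM1, RRM2 and TYMS summed to 437 TPM with JIB-04 and 649 TPM with DMSO, a log2 ratio of -0.57 (delta-method interval from counting error -0.61 to -0.53, with no pseudocount). TK1, TK2 and DCK summed to 152 TPM with JIB-04 and 161 TPM with DMSO, a log2 ratio of -0.085 (interval -0.16 to -0.014). Salvage over de novo was thus 0.349 with JIB-04 and 0.249 with DMSO, 0.49 higher on the log2 scale (interval 0.40 to 0.57). This rests on TK1, for without it the difference was -0.091. For the thymidylate branch alone, TK1 over TYMS was 0.398 with JIB-04 and 0.277 with DMSO, a difference of 0.52 (interval 0.42 to 0.63). Within salvage the kinases differed more, with TK1 over DCK at 5.74 with JIB-04 and 2.62 with DMSO, a difference of 1.13 (interval 0.95 to 1.305). TK1 over TK2 was 6.70 with JIB-04 and 5.18 with DMSO, a difference of 0.37 (interval 0.22 to 0.53). A factor that multiplies a whole library leaves such proportions as they are, whereas quantile normalization moved the difference of salvage over de novo to 0.59.
The order of the members changed accordingly. With JIB-04 it ran TYMS, SLC29A1, TK1, RRM2, DUT, DTYMK, RRM1, DCK and TK2, with overlapping counting intervals for the neighbours DTYMK and RRM1. With DMSO it ran TYMS, SLC29A1, RRM2, RRM1, TK1, DUT, DTYMK, DCK and TK2, with overlapping intervals for RRM1 and TK1 and for DUT and DTYMK. TK1 therefore stood above both reductase genes with JIB-04 and below RRM2 with DMSO.

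**Figure D4:**
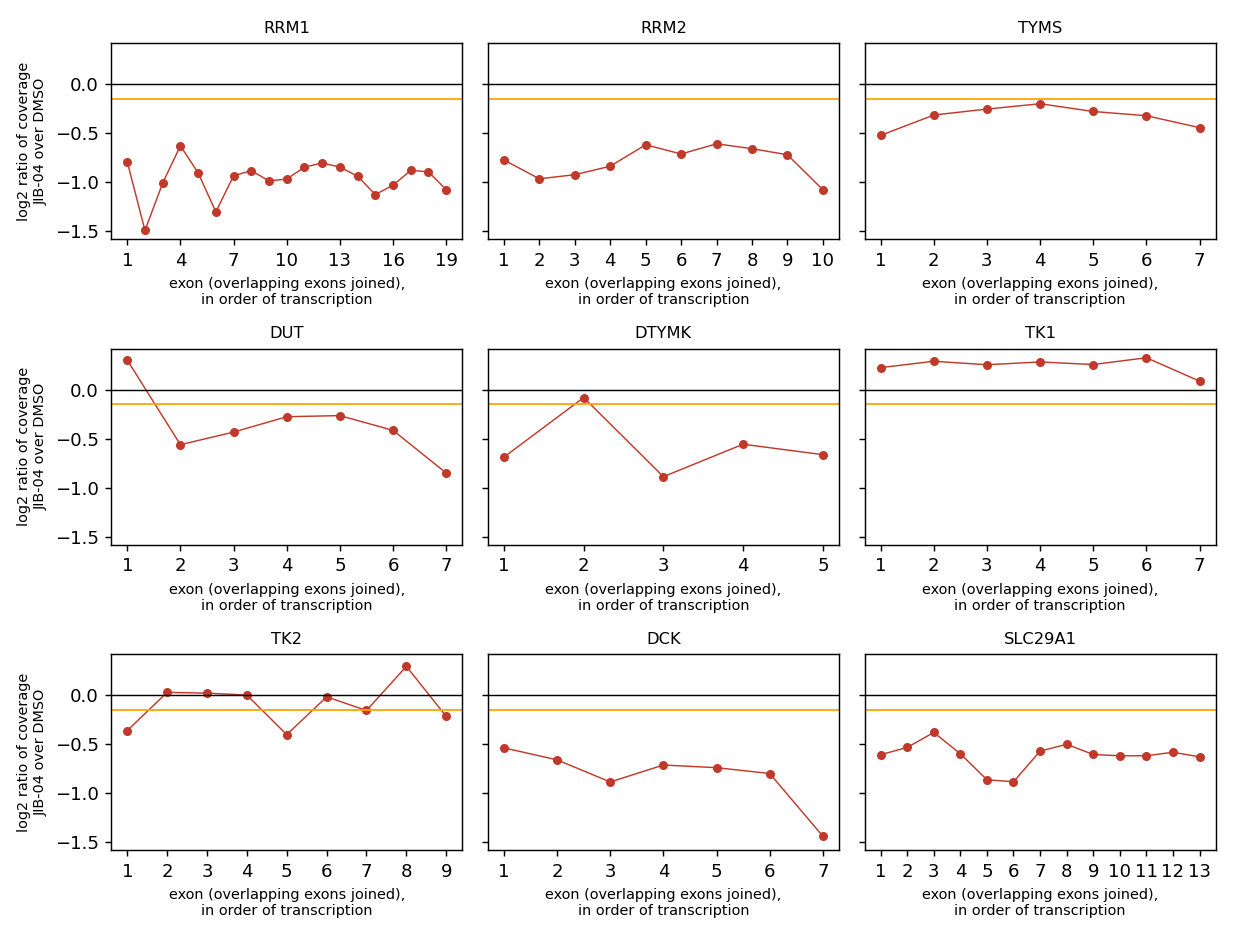
Log2 ratio of coverage, JIB-04 over DMSO, of each exon of each member, with overlapping exons joined, in the order of transcription, with the orange line at the median ratio of all genes (-0.15). All 7 TK1 exons lie above 0, the first DUT exon lies above 0 and its other 6 below, and the last exon of DCK is its lowest at -1.44.

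By annotated transcript, the 9 members have 36, of which 27 reached a TPM of 1 in a library. Among these, 10 were at least 2-fold lower with JIB-04, namely 4 of SLC29A1, 3 of DTYMK, 2 of DUT and 1 of TK2, and 0 were at least 2-fold higher. Over all 30127 transcripts described, 13.5% were lower and 10.5% higher by 2-fold. All of these calls rest on how coverage was shared among overlapping transcripts.
The last exon had a lower ratio than the median of the other exons in 9 of 9 members and was the lowest of all exons in RRM2, DUT, TK1 and DCK. Among 2950 genes with 1 annotated transcript and at least 4 exons, the last exon was lower in 59.0%, and the median difference was -0.060 on the log2 scale. In the members the difference ranged between -0.71 for DCK and -0.028 for SLC29A1. Without the last exon RRM2 stood at -0.74 and DUT at -0.28, and no member changed sign. What part a change at the 3' end had in the gene ratios was not tested.
Folate enzymes feed the TYMS reaction, and they did not move together. Of 7 described, 3 were at least 2-fold lower with JIB-04 and 0 higher, with a median log2 ratio of -0.27. For this list and those below, the shares over all genes were 6.88% at least 2-fold lower, 5.99% at least 2-fold higher and 60.3% below 0. MTHFD1, the cytosolic trifunctional enzyme, was at 49.3 TPM with JIB-04 and 118 TPM with DMSO, a log2 ratio of -1.24. Of the mitochondrial members, 2 were higher, MTHFD2 at 206 TPM with JIB-04 and 124 TPM with DMSO (0.73) and MTHFD1L at 81.4 and 49.6 TPM (0.70). The other 2 were lower, MTHFD2L at 2.43 TPM with JIB-04 and 11.3 TPM with DMSO (-1.84) and SHMT2, named after its value was seen, at 108 and 125 TPM (-0.21).
Genes that build the pyrimidine ring were below 0 in 5 of 5 cases in the deposited TPM, with a median of -0.72 and 1 past 2-fold. That gene was CAD, which carries the first enzymes of the route, at 22.9 TPM with JIB-04 and 59.2 TPM with DMSO (-1.33). CTPS1, which makes CTP, was at 58.2 TPM with JIB-04 and 105 TPM with DMSO (-0.84), and UMPS and DHODH had smaller log2 ratios of -0.42 and -0.20. Of 13 genes of purine ring synthesis, 10 were below 0, the median was -0.62, and 2 passed 2-fold lower. These were PFAS, at 17.5 TPM with JIB-04 and 42.4 TPM with DMSO (-1.23), and PRPS2, at 22.6 and 46.8 TPM (-1.02). PAICS (0.28) and IMPDH1 (0.26) had the highest log2 ratios of that list.
Of 18 genes that, like DUT, clean the nucleotide pool or break nucleotides down, 16 were described, their median log2 ratio was -0.70, and 3 passed 2-fold lower and 1 higher. SAMHD1, which degrades deoxynucleoside triphosphates, was at 8.39 TPM with JIB-04 and 24.0 TPM with DMSO (-1.41). DCTPP1, a pyrophosphatase of dCTP, was at 47.8 TPM with JIB-04 and 107 TPM with DMSO (-1.14, named after its value was seen). CDA, the cytidine deaminase that inactivates gemcitabine, was higher, at 50.8 TPM with JIB-04 and 18.3 TPM with DMSO (1.42), and UPP1 had a log2 ratio of 0.25. In all, the wider lists hold 74 nucleotide genes, of which 67 were described, with a median of -0.47. Of these 67, 6 were at least 2-fold higher, 9 at least 2-fold lower and 50 below 0, beside 5.99%, 6.88% and 60.3% of all genes.
Replication genes, listed for comparison because they use these deoxynucleotides, were all below 0, 18 of 18, beside 60.3% of all genes. Their median was -0.93, and 7 passed 2-fold lower, beside 6.88% of all genes. GINS1 (-1.37) and RFC3 (-1.28) had the lowest log2 ratios, and ORC1 (-0.44) and MCM2 (-0.34) the highest. The ratios of RRM1, RRM2 and DCK lay near this median, those of TYMS and DUT lay nearer 0, and TK1 at 0.16 lay above all 18 genes.

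**Figure D5:**
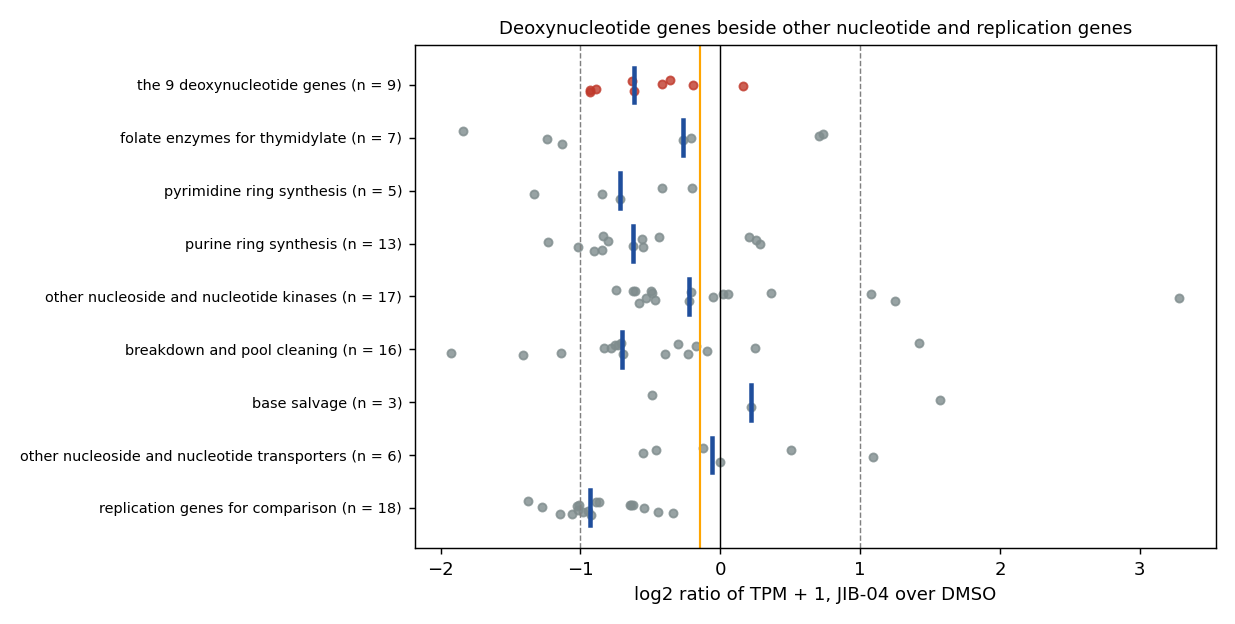
Log2 ratio of TPM + 1, JIB-04 over DMSO, for the 9 members (red) and for the genes of each wider list (grey), with the median of each list as a blue bar, the median of all genes in orange and 2-fold as dashed lines. The median was -0.62 for the members and -0.93 for the replication genes.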

How the data were processed

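RNA from PLC/PRF/5 cells was sequenced in 2 libraries, 1 after 6 µM JIB-04 for 24 h and 1 after DMSO, grouped by their titles. Tools listed in the submitters' processing notes are StringTie 1.3.3b, HISAT2 2.0.5, Bowtie2 2.2.6, Trimmomatic 0.32 and FastQC 0.11.5, with the genome build hg19 (GRCh37). For each annotated RefSeq transcript the authors deposited the coverage signal, FPKM and TPM as StringTie gave them with a strand setting, and coverage per exon, among other attributes in text form, with no read counts. Depth was therefore estimated as coverage times length over 202 bases (2 mates of 101), but 28.1% of weakly covered genes with 1 transcript in the JIB-04 library and 29.2% in the DMSO library lay within 2 bases of a whole multiple, so fragments are approximate.
Genes were matched by Entrez ID, with symbols for 27559 of 27685 IDs from a RefSeq table of GRCh38.p14. Coordinates of genes are on hg19, and those of the printed promoter bases on GRCh38.p14, with no conversion between them. TPM was summed per gene, a pseudocount of 1 was added, genes under a TPM of 1 in both libraries were left out, and ratios from 2 upward or from 0.5 downward counted as past 2-fold. TPM is relative, so higher shares of some genes lower all others, and the pseudocount understates the change of low genes. Exon coverage was put on the TPM scale by each library's TPM over coverage. The members and lists were chosen with earlier results of these data known. All 9 members were named, and of each wider list the 2 highest and 2 lowest log2 ratios among genes whose mean TPM reached 5, although a few genes under this rule are not reported here. The alternatives were other pseudocounts (0.1 and 5), filters, thresholds, scalings, FPKM, fragments, the most abundant transcript, division by GAPDH, other sums for the arms and, chosen after seeing the data, first-exon coverage and joined overlapping exons without the last one. The intervals were tested on simulated data with whole fragments and counting error alone, as the intervals assume. That test therefore cannot tell how they hold for approximate fragments or for differences between cultures. Python 3.11.15, numpy 2.4.6, pandas 2.3.3, SciPy 1.17.1 and matplotlib 3.10.9 were used.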

Additional observations from a re-analysis of the deposited data

How the results depend on the processing

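No paired analysis was possible because there was 1 library per condition. Among the 10 alternatives other than division by GAPDH, the filters leave a member's ratio as it was, and the pseudocounts cannot change its sign. Under the others, the 9 members kept the sign of their log2 ratios except SLC29A1, which stood at 0.28 for its most abundant transcript alone. None of those 10 brought a member past 2-fold, which the filters could not have done. Division by GAPDH put all 9 members past 2-fold lower and turned TK1 to -1.17. At a threshold of 1.5-fold, 5 of 9 members were lower and 0 higher, and of the 67 described wider genes 25 were lower and 8 higher. Of all 14450 genes, 1853 were higher and 3030, or 21.0%, lower. At 3-fold, the wider list had 1 higher and 2 lower, and all genes 318 and 154. A pseudocount of 5 gave 439 genes higher and 409 lower, and setting the median of 9007 well expressed genes, -0.15, to 0 gave 1135 higher and 627 lower. The log2 difference of salvage minus de novo was 0.69 from the medians of the arms, 0.59 after quantile normalization and -0.091 with TK1 left out. The DUT start at 48623292 was at -1.20 by TPM and 0.031 by first-exon coverage, from about 1 fragment per library. Ratios of DCK, TK2 and DTYMK rest on the fewest fragments.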

Other observations

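Other kinases, base salvage enzymes and transporters held most of the wider genes at least 2-fold higher with JIB-04. Of 17 described kinases of nucleosides and nucleotides, 3 passed 2-fold higher and 0 lower, beside 5.99% and 6.88% of all genes, and the median log2 ratio was -0.23. AK4, an adenylate kinase of mitochondria, was at 165 TPM with JIB-04 and 16.1 TPM with DMSO (3.28), and GUK1, guanylate kinase, was at 459 and 193 TPM (1.25). NME1 (-0.75) and ADK (-0.63), which phosphorylate nucleoside diphosphates and adenosine, had the lowest log2 ratios of the list. Of the 3 genes of base salvage, UPRT was at 44.9 TPM with JIB-04 and 14.5 TPM with DMSO (1.57), HPRT1 had a log2 ratio of 0.22 and APRT one of -0.49.
Of 9 transporters other than SLC29A1, 6 were described, with a median log2 ratio of -0.062. SLC25A36, a mitochondrial carrier of pyrimidine nucleotides, was at 52.7 TPM with JIB-04 and 24.2 TPM with DMSO (1.09), and SLC29A4 had a log2 ratio of 0.51. SLC29A2, the equilibrative carrier most like SLC29A1, had a log2 ratio of -0.55, beside -0.63 for SLC29A1. The concentrative carriers SLC28A1, SLC28A2 and SLC28A3 were below 1 TPM in both libraries.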
